A study of Mus musculus with 6 samples.

Results

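The 10 genes described here encode the main heat shock chaperones of the cytosol and of the mitochondrion. They are Hspa1a and Hspa1b, the stress-inducible HSP70 genes, and a set of 8 chaperones present in unstressed cells, Hspa8, Hsp90aa1, Hsp90ab1, Hsph1, Dnajb1, Hspe1, Hspd1 and Hspb1. They were chosen by symbol from 55401 Ensembl gene IDs, and each symbol matched 1 ID in the GENCODE mouse release 21 annotation. All 10 were among the 13590 genes kept for testing, and the lowest value of any of them in any library was 38.0 FPKM (a level scaled by gene length and by the fragments of the library). RNA was sequenced in bulk from lamina propria cells of the colon, the layer of immune cells and connective tissue under the epithelium. All mice were male, 5 to 6 weeks old and Apc Min/+, with a truncating germline mutation in 1 copy of the tumour suppressor Apc, so no library came from mice with intact Apc. Mice received by gavage, on alternate days, either the vehicle (2% Tween 80, 3 libraries) or atorvastatin at 20 mg/kg (3 libraries), an inhibitor of cholesterol synthesis. The labels give neither the number of mice behind a library nor the length of treatment, so the p-values speak of how these libraries vary, and that variation may be technical.

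Heat shock proteins hold unfolded proteins, help them fold and prevent aggregation. HSP70 proteins bind short hydrophobic stretches in a cycle of ATP hydrolysis that J-domain proteins such as Dnajb1 start and nucleotide exchange factors such as Hsph1 complete, and HSP90 proteins receive many kinase and steroid receptor clients from HSP70. In the mitochondrial matrix Hspd1 (HSP60) forms a folding chamber that Hspe1 (HSP10) closes. Under stress the transcription factor HSF1 binds heat shock elements, arrays of the block nGAAn in alternating orientation, and induces Hspa1a and Hspa1b from a low resting level. Several of the genes called constitutive here, among them Dnajb1, Hsph1, Hsp90aa1 and Hspb1, are known to be heat-responsive too. Dissociation of a tissue into cells is a known trigger of these genes.

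Summed FPKM per library lay between 355787 and 456064, and fragment numbers are unknown. Immunoglobulin genes took 27.9% to 47.9% of the sum, most in atorvastatin library 2. Vehicle library 3 stood apart from the others, with a mean Pearson's r across genes of 0.944 to the other libraries against 0.957 to 0.961 for the rest. Markers of the cell types that the colonic lamina propria holds were present in every library: the summed level was 248 to 419 FPKM over 5 B cell markers, 58.8 to 85.7 over 5 T cell markers, 123 to 263 over 7 macrophage markers and 742 to 975 over 5 fibroblast markers. Epithelial markers, 6 in number and 4 of them above the filter, summed to 15.1 to 37.6 FPKM. None of the 59 markers was at 0 in all libraries.

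Every atorvastatin library had higher values of the inducible HSP70 genes than any vehicle library, Dnajb1 and 4 other chaperones were higher on average with overlapping groups, and Hspa8, Hspe1 and Hspd1 were lower on average. None of these differences passed limma at a false discovery rate of 0.05. Over all 13590 genes the number that passed was also 0 (0%), and 4 passed with array weights, which counted vehicle library 1 most. An unadjusted p under 0.05 was reached by 974 genes (7.17%), with 3.13% of all genes higher and 4.04% lower. Of the 10 chaperones, 0 had an unadjusted p under 0.05. Groups did not overlap in 2 of the 10, both higher with atorvastatin, where 5.53% of all genes were higher without overlap and 8.85% lower. These 2, Hspa1a and Hspa1b, are near-identical copies whose reads may not be told apart, so they are not independent results. Of the 10 differences 7 were positive, against 47.0% of all genes. In bulk RNA a change in the number of cells of a type and a change in RNA per cell cannot be told apart.

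Hspa1b and Hspa1a were the most abundant of the 10, with means of 1984 and 1791 FPKM over the 6 libraries, and only 11 and 18 of the tested genes had a higher mean. Dnajb1 followed at 619 FPKM, Hspa8 at 410, Hsp90ab1 at 389, Hsp90aa1 at 234, Hspb1 at 184, Hsph1 at 84.8, Hspe1 at 50.9 and Hspd1 at 49.8 FPKM. Most steps in this order held in 6 of 6 libraries. Hspa8 and Hsp90ab1 were not separated beyond their spread, since Hspa8 was the higher in only 2 of 6 libraries. Neither were Hspe1 and Hspd1, with Hspe1 higher in 2 of 6. The place of Hspa8 depends on how reads were assigned. With its closest pseudogene, Gm15459, added it was 422 to 702 FPKM, above Hsp90ab1 (356 to 420 FPKM) in 6 of 6 libraries. Hsp90aa1 exceeded Hspb1 in all 6 libraries, but by a ratio of as little as 1.00. Together the 10 genes made up 1.19% to 2.02% of the summed FPKM of a library.

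**Figure D1:**
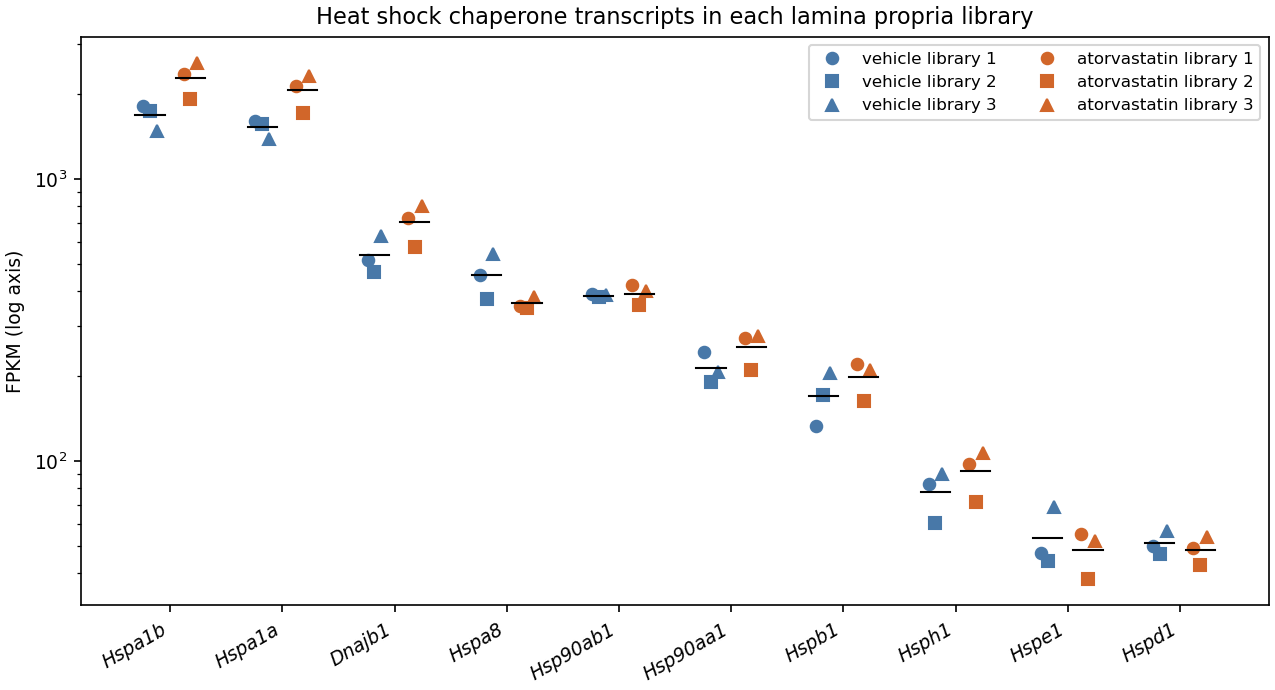
Level of each chaperone gene in each library (vertical log axis, FPKM), ordered by mean level, with vehicle in blue, atorvastatin in orange, the library number as the marker shape and the group mean as a black bar. The atorvastatin points of Hspa1b and Hspa1a all lie above the vehicle points, and the groups overlap in the other 8 genes.

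Hspa1a (ENSMUSG00000091971, chr17:34969190-34972156, minus strand, mm10) and Hspa1b (ENSMUSG00000090877, chr17:34956436-34959238, minus strand) are neighbouring copies, each a single exon in the annotation, whose start sites lie 12918 bases apart. Their upstream sequences are shown because these are the promoters that HSF1 acts on. The 250 bases before each start site, from RefSeq on GRCm38.p6, are printed 5′ to 3′ with the match to GAANNTTC, a pair of heat shock element blocks, in capitals. Hspa1a lies at chr17:34972157-34972406 and Hspa1b at chr17:34959239-34959488, both on the minus strand.
Hspa1a: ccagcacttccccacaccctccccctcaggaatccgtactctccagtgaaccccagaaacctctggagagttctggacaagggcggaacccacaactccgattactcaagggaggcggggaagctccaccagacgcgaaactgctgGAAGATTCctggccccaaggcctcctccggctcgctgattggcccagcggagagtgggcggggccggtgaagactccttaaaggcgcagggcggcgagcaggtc
Hspa1b: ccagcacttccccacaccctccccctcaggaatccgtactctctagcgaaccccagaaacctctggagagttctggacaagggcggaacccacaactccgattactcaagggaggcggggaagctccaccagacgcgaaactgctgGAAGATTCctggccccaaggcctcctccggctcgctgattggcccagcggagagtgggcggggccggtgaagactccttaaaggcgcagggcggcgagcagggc
The sequences differ at 3 of 250 positions (98.8% identical), counted from 1 at the first base printed with the base of Hspa1a first: C44T, T47C and T249G. The capital pair ends 97 bases before the start site in both. A further feature, a CCAAT box read on the other strand as ATTGG, begins 67 bases before the start site in both. Over 32851 promoter windows of the same length, 6.69% hold GAANNTTC, 7.17% hold the inverse arrangement TTCNNGAA, 12.8% hold either and 33.8% hold a CCAAT box on either strand.

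Hspa1a had 1612, 1571 and 1387 FPKM in vehicle libraries 1 to 3, and 2136, 1720 and 2322 FPKM in atorvastatin libraries 1 to 3. Hspa1b had 1821, 1746 and 1474 FPKM with vehicle and 2362, 1919 and 2586 FPKM with atorvastatin. In both genes the lowest library was vehicle 3, the highest was atorvastatin 3, and the atorvastatin library nearest to the vehicle values was atorvastatin 2. The mean of Hspa1a was 1523 ± 120 FPKM (SD, n = 3) with vehicle and 2059 ± 308 FPKM with atorvastatin, which is 0.43 apart in log2(FPKM + 1) units (SE 0.24, 95% interval -0.15 to 1.00, limma adjusted p = 0.711 over all genes). For Hspa1b the means were 1680 ± 183 and 2289 ± 339 FPKM, 0.44 log2 units apart (SE 0.25, limma adjusted p = 0.711). On the same scale the fold was 1.34 for Hspa1a and 1.36 for Hspa1b, and the intervals of both include 0. The separation of the groups did not hold when libraries were scaled to equal summed FPKM, where 0 of the 10 genes were separated. Atorvastatin library 2 has the largest sum and that scaling lowers it most.

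Short reads from much of either copy match both. Of the 50-base stretches of the Hspa1a transcript (2967 nt), 58.8% also occur in Hspa1b, and the aligned 2197 bases are 99.3% identical. No source used here says how the authors assigned such reads. The division between the copies, and how far they moved together from library to library, is therefore uncertain. Hspa1b was 1.06 to 1.13 times Hspa1a in every library. Their summed FPKM can still move with that handling, since the transcripts differ in length. It was 3432, 3317 and 2861 FPKM with vehicle and 4498, 3639 and 4908 FPKM with atorvastatin. The sums lay 0.43 log2 units apart (SE 0.29, limma adjusted p = 0.738).

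Dnajb1 (chr8:83608193-83612653), the J-domain partner that delivers substrates to HSP70, had 516, 469 and 627 FPKM with vehicle and 728, 574 and 803 FPKM with atorvastatin. Atorvastatin library 2 lay below vehicle library 3, so the groups overlapped. The means were 537 ± 81.1 and 702 ± 117 FPKM (SD, n = 3), 0.38 log2 units apart (SE 0.22, limma adjusted p = 0.711), the third largest of the 10. Without vehicle library 3, the only vehicle library within the atorvastatin range, its groups did not overlap. Its difference was then 0.50 (limma adjusted p = 0.594). In that setting 10.8% of all genes were higher without overlap, but for those genes the library was not the source of overlap by selection.

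Hsph1 (chr5:149614287-149636376), the HSP110 that recharges HSP70 with ATP, had 82.9, 60.4 and 90.2 FPKM with vehicle and 97.2, 71.6 and 107 FPKM with atorvastatin. Libraries 2 of both groups were the low ones and the groups overlapped. The means lay 0.24 log2 units apart (SE 0.22, limma adjusted p = 0.802), and only 0.07 without vehicle library 2. Hspb1 (chr5:135887919-135889563), the small heat shock protein HSP25 that holds unfolding proteins without ATP, had 133, 171 and 205 FPKM with vehicle and 221, 163 and 210 FPKM with atorvastatin. Its vehicle values spread over a wider range than its atorvastatin values, and its log2 difference was 0.23 (SE 0.21, limma adjusted p = 0.802). That difference was 0.07 without vehicle library 1, the lowest value of the 6. Of the 50-base stretches of Hspb1, 51.7% occur in another annotated gene, mainly the pseudogene Hsp25-ps1 at 1.76 to 2.81 FPKM, against 0% for Hsph1 and 0.407% for Dnajb1.

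Hspa8 (chr9:40800984-40810087), the constitutive HSP70 that is also the ATPase uncoating clathrin vesicles, went the other way from its inducible relatives. It had 458, 374 and 542 FPKM with vehicle and 356, 350 and 383 FPKM with atorvastatin. Vehicle library 3 was the highest and vehicle library 2 lay within the atorvastatin range. The means were 458 ± 83.6 and 363 ± 17.6 FPKM (SD, n = 3), and the log2 value of atorvastatin minus vehicle was -0.32 (SE 0.19, 95% interval -0.78 to 0.14, limma adjusted p = 0.720). The value was -0.19 without vehicle library 3. It was -0.46 without vehicle library 2 and -0.36 without atorvastatin library 3, in both cases with groups that did not overlap. These libraries are the ones that made the groups of Hspa8 overlap. In those settings 15.9% and 14.1% of all genes were lower without overlap, which is not a like comparison.

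Much of the Hspa8 transcript is repeated in processed pseudogenes, and 73.2% of its 50-base stretches occur in another annotated gene. The closest of these, Gm15459, was listed at 75.6, 47.3 and 160 FPKM with vehicle and 162, 113 and 42.3 FPKM with atorvastatin, an order unlike that of Hspa8 itself. The sum of Hspa8 and Gm15459, an alternative chosen after the data were seen, was 534, 422 and 702 FPKM with vehicle and 517, 463 and 425 FPKM with atorvastatin. Its log2 difference was -0.21 (SE 0.23, limma adjusted p = 0.831), against -0.32 for Hspa8 alone.

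The cytosolic HSP90 genes differed in level and in spread. Hsp90ab1 (chr17:45567775-45573271), the constitutive HSP90 beta, had 390, 380 and 387 FPKM with vehicle and 420, 356 and 400 FPKM with atorvastatin. Of the 10 genes it varied least over the 6 libraries, with a coefficient of variation of 5.46%, and its log2 difference was 0.02 (SE 0.16, 95% interval -0.36 to 0.40, limma adjusted p = 0.983). Hsp90aa1 (chr12:110690605-110702728), the more inducible HSP90 alpha, had 243, 191 and 206 FPKM with vehicle and 273, 210 and 278 FPKM with atorvastatin. Vehicle library 1 lay above atorvastatin library 2, so the groups overlapped, and the log2 difference was 0.24 (SE 0.18, limma adjusted p = 0.751). Without vehicle library 1, the only vehicle library within the atorvastatin range, the groups of Hsp90aa1 did not overlap. In that setting 8.89% of all genes were higher without overlap, which is not a like comparison. The ratio of Hsp90ab1 to Hsp90aa1 was 1.61, 1.99 and 1.88 with vehicle and 1.54, 1.69 and 1.44 with atorvastatin. Between the 2 HSP90 transcripts no 50-base stretch is shared. Other annotated genes hold 58.5% of the stretches of Hsp90aa1, mainly the pseudogene Gm12346, and 4.49% of those of Hsp90ab1.

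Hspe1 (chr1:55088132-55091307, plus strand) and Hspd1 (chr1:55077835-55088243, minus strand) lie head to head, and their annotated ends overlap by 112 bases. A run of heat shock element letters lies upstream of the RefSeq start of Hspe1 and of 1 of the RefSeq starts of Hspd1, and is shown because both genes share it. The 30 bases at chr1:55088053-55088082 are printed on the strand of each gene, with overlapping GAANNTTC and TTCNNGAA matches in capitals.
Hspe1: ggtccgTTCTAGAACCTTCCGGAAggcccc
Hspd1: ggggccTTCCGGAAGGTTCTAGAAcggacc
The capitals span 18 bases, begin 89 bases before the RefSeq start site of Hspe1, and fall inside the first exon of an annotated Hspd1 transcript with a more upstream start. A triplet, GAANNTTC followed directly by NNGAA and searched on both strands, occurs within them and is present in 0.466% of the 32851 windows. Hsph1 holds a TTCNNGAA pair (chr5:149636351-149636380, minus strand, within an annotated exon) and Hspb1 holds GAANNTTC pairs (chr5:135887791-135887820 and chr5:135887811-135887840, plus strand), printed the same way.
Hsph1: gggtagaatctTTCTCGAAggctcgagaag
Hspb1, first: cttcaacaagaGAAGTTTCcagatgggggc
Hspb1, second: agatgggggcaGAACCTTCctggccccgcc
Hspa1a, Hspa1b, Hspe1, Hspd1, Hsph1 and Hspb1 thus hold a pair, 6 of the 7 members with a window in RefSeq's table. Dnajb1 holds none in these 250 bases. Either pair occurs in 12.8% of the 32851 windows, a share by window, whereas Hspd1 and Hsph1 have 2 windows each. The 6 are not independent, since Hspa1a and Hspa1b are near-identical copies and Hspe1 and Hspd1 share 1 run. Hspa8, Hsp90aa1 and Hsp90ab1 were not searched. A match describes letters only.

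Hspe1 had 47.4, 44.3 and 68.7 FPKM with vehicle and 55.3, 38.0 and 51.9 FPKM with atorvastatin. Hspd1 had 49.99, 46.7 and 56.5 FPKM with vehicle and 49.1, 42.8 and 53.8 FPKM with atorvastatin. In both genes vehicle library 3 was the highest of the 6 libraries and atorvastatin library 2 the lowest, and the groups overlapped. Their log2 differences were -0.13 (SE 0.22, limma adjusted p = 0.890) for Hspe1 and -0.07 (SE 0.14, limma adjusted p = 0.909) for Hspd1, and without vehicle library 3 they were 0.06 and 0.00. The ratio of Hspe1 to Hspd1 stayed between 0.889 and 1.22. Another annotated gene holds 36.1% of the 50-base stretches of Hspe1 and 44.8% of those of Hspd1.

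**Figure D2:**
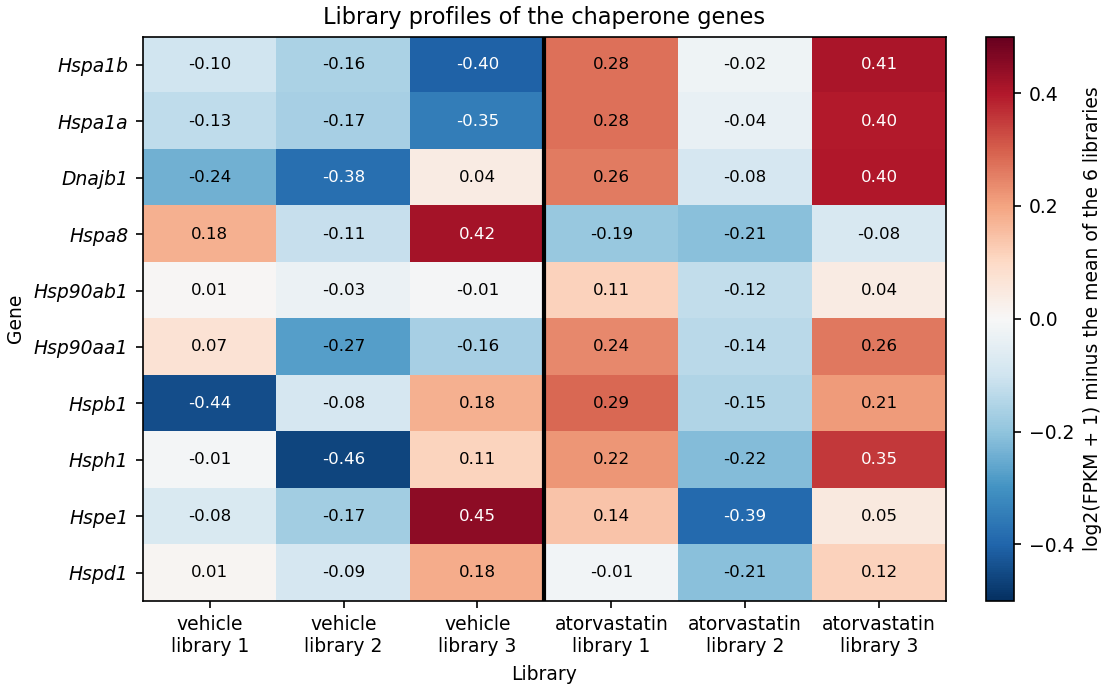
Deviation of each chaperone gene (rows, by mean level) in each library (columns) from its mean over the 6 libraries, in log2(FPKM + 1), with red above and blue below the mean. Hspa1a and Hspa1b are blue in all 3 vehicle libraries and deepest in vehicle library 3, where Hspa8 and Hspe1 are at their highest.

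Within the groups the 10 genes varied by library. Atorvastatin library 2 was the lowest of its group in 10 of 10 genes, and atorvastatin library 3 was the highest in 7. Among the vehicle libraries, library 2 was the lowest in 7 genes and library 3 the highest in 6, whereas Hspa1a and Hspa1b were lowest in library 3. The share of immunoglobulin genes moved with this in the atorvastatin group, at 47.9% in library 2 against 30.2% and 27.9% in libraries 1 and 3, and its part in the result was not tested. Without atorvastatin library 2, 7 of the 10 genes were higher with no overlap between groups, among 14.9% of 13373 genes tested. Because that library was the lowest of its group in all 10 genes, leaving it out favours this outcome. The share over all genes is therefore not a like comparison. The 7 genes were Hspa1a, Hspa1b, Hsp90aa1, Hsp90ab1, Hsph1, Dnajb1 and Hspb1, and 0 of them had an unadjusted p under 0.05 in limma.

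The contrast between inducible and constitutive members was taken within each library, as the mean log2(FPKM + 1) of Hspa1a and Hspa1b minus the mean of the 8 constitutive genes. It was 3.35, 3.44 and 2.88 log2 units with vehicle and 3.55, 3.56 and 3.64 with atorvastatin, and the groups did not overlap. The group difference was 0.36, from 0.43 for the inducible genes and 0.07 for the constitutive genes. Without vehicle library 3 the difference was 0.19. As a score over chosen genes it carries no p, and the share of such scores that would separate the groups was not counted. Among the constitutive genes the differences ran from -0.32 in Hspa8 to 0.38 in Dnajb1, and that of Dnajb1 was close to those of the inducible genes.

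The summed FPKM of Hspa1a and Hspa1b was also set against each of the 8 constitutive genes, ratios within a library that do not depend on how libraries are scaled. Against Hspa8, the gene with the most negative difference, it was 7.50, 8.86 and 5.28 times as high in the vehicle libraries and 12.6, 10.4 and 12.8 times in the atorvastatin libraries, without overlap. The mean ratio with atorvastatin was 1.66 times that with vehicle for Hspa8, the widest of the 8, and 1.02 times for Dnajb1, the narrowest, where the groups overlapped. Groups did not overlap in 4 of the 8 ratios, those to Hspa8, Hsp90ab1, Hspe1 and Hspd1. All 8 share 1 numerator, which itself did not overlap between groups, so the 4 are not separate results. The share of all genes that would give such a ratio was not counted. With Gm15459 added to Hspa8 the ratios were 6.43, 7.87 and 4.08 with vehicle and 8.69, 7.86 and 11.5 with atorvastatin, and the groups overlapped. These ratios were chosen after the values of the genes were seen and carry no test.

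**Figure D3:**
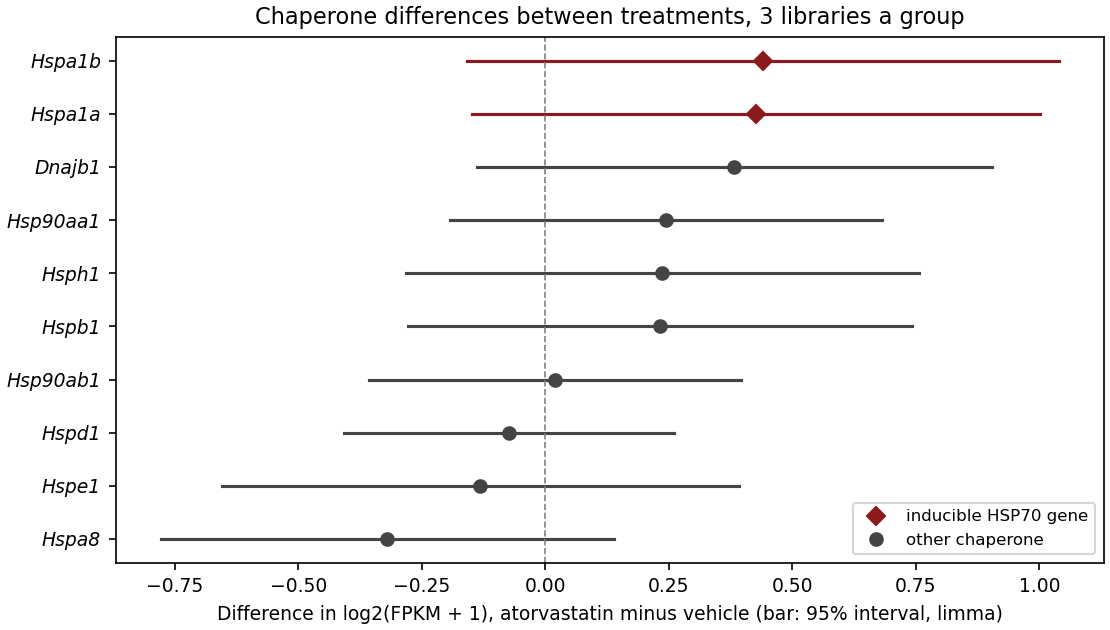
Difference between atorvastatin and vehicle for each chaperone gene in log2(FPKM + 1) (horizontal axis), as the limma estimate with its 95% interval, with diamonds for the inducible HSP70 genes. The estimates run from -0.32 for Hspa8 to 0.44 for Hspa1b, and all 10 intervals include 0.

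The wider chaperone network was read from 10 related lists, which share genes (13 measured genes are in 2 lists each, among them Stip1, Bag3, Cryab and Hspa9). No gene of any list passed limma's threshold over all genes, and medians are given beside the median of all genes, -0.02. In the list of other HSP70 genes, 9 of 9 measured, the median log2 difference was 0.14. At an unadjusted p under 0.05, 2 were higher and 0 lower, against 3.13% and 4.04% of all genes. Groups did not overlap in 3 higher genes (Hspa1l, Hspa2 and Hspa4l) and 2 lower ones (Hspa4 and Hspa14), against 5.53% and 8.85% of all genes. Hspa1l, a relative expressed mainly in testis, had 19.2, 20.4 and 20.2 FPKM with vehicle and 29.3, 23.6 and 28.5 FPKM with atorvastatin, without overlap (log2 difference 0.42, SE 0.12, limma adjusted p = 0.693). Its start lies 547 bases from that of Hspa1a on the opposite strand, and 9.57% of its 50-base stretches occur in Hspa1a, so its values may hold reads of Hspa1a. Hspa2 had 22.6 and 27.6 FPKM on average with vehicle and atorvastatin (log2 difference 0.28, SE 0.11, limma adjusted p = 0.693). Hspa9, the mitochondrial HSP70, had a log2 difference of -0.03, and Hspa4, an HSP110 relative, one of -0.17.

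The list of J-domain genes, which leaves out Dnajb1, and that of cochaperones held values of both signs. Among the J-domain genes 6 were positive and 10 negative, and among the cochaperones 9 and 13. The median of 16 measured J-domain genes was -0.12. At an unadjusted p under 0.05, where 3.13% of all genes were higher and 4.04% lower, 0 of them were higher and 2 lower. Those were Dnajc9, a histone chaperone (9.25 and 7.10 FPKM on average, log2 difference -0.34, SE 0.09, limma adjusted p = 0.693), and Dnajc7 (15.4 and 12.7 FPKM, log2 difference -0.26). Dnaja1 and Dnaja2, partners of HSP70 in the cytosol, had log2 differences of 0.11 and -0.15. Of 22 cochaperones 0 had an unadjusted p under 0.05 in either direction, with a median of -0.07. Bag3, which links HSP70 to small heat shock proteins and is induced by HSF1, had the most positive value of that list: 74.2, 76.8 and 96.3 FPKM with vehicle and 119, 79.5 and 123 FPKM with atorvastatin (log2 difference 0.36, SE 0.21, limma adjusted p = 0.714). Stip1, which bridges HSP70 and HSP90, had a log2 difference of 0.10. Groups did not overlap in 0 higher and 4 lower J-domain genes, and in 0 higher and 4 lower cochaperones. Over all genes 5.53% were higher and 8.85% lower without overlap.

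Genes of the cytosolic chaperonin TRiC, which folds actin and tubulin, were all 8 lower on average, with a median of -0.19. Of these, 0 were higher and 2 lower at an unadjusted p under 0.05, against 3.13% and 4.04% of all genes. Groups did not overlap in the same 2, where 8.85% of all genes were lower without overlap. Cct7 had 17.1, 17.6 and 17.9 FPKM with vehicle and 14.5, 13.8 and 14.8 FPKM with atorvastatin (log2 difference -0.27, SE 0.10, limma adjusted p = 0.693), and Cct4 averaged 29.9 and 24.3 FPKM (log2 difference -0.29, SE 0.11, limma adjusted p = 0.693). The most abundant subunits, Cct2 and Cct5, had -0.14 and -0.15. Among 12 genes of mitochondrial folding and proteolysis 0 had an unadjusted p under 0.05, and the median was -0.10, with Trap1, the mitochondrial HSP90, at -0.15. Small heat shock genes, 7 of 9 measured, had a median of -0.01 and 0 genes at an unadjusted p under 0.05. Hspb8 was at 0.19 and Cryab at -0.35. Groups did not overlap in 1 higher and 1 lower mitochondrial gene, and in 0 higher and 1 lower small heat shock gene. Over all genes the shares were 5.53% higher and 8.85% lower.

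Transcripts of the factors that drive the response were low. Hsf1 had 3.16, 4.72 and 2.65 FPKM with vehicle and 3.26, 4.18 and 3.91 FPKM with atorvastatin (log2 difference 0.11, SE 0.19), and Hsf2 had 2.32 and 2.04 FPKM on average. Hsbp1, which binds HSF1, had a log2 difference of -0.13. HSF1 activity is set largely after translation, and its transcript level does not report it. Among 15 further HSF1 targets 0 had an unadjusted p under 0.05. Their median was 0.10, with 10 positive values, and groups did not overlap in 3 higher and 2 lower genes, against 5.53% and 8.85% of all genes. The most abundant were Ubb, a polyubiquitin gene (820 and 904 FPKM on average, log2 difference 0.14), and Hmox1, heme oxygenase (510 and 498 FPKM, log2 difference -0.04).

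Chaperones of the endoplasmic reticulum, whose induction runs through other factors than HSF1, had a median of 0.01 over 14 genes, with 0 at an unadjusted p under 0.05. Of the 14, 8 were positive and 6 negative. Groups did not overlap in 1 higher and 0 lower genes, against 5.53% and 8.85% of all genes. The higher gene was Hyou1 (16.0 and 20.8 FPKM on average, log2 difference 0.37, SE 0.16, limma adjusted p = 0.696). Hspa5 (BiP), the HSP70 of that compartment, had 520 and 536 FPKM on average (log2 difference 0.08), and Hsp90b1 had 248 and 252 FPKM (log2 difference 0.02). Immediate early genes, which like Hspa1a are triggered by tissue dissociation, had the highest median of the related lists, 0.28 over 20 genes, 17 of them positive. Groups did not overlap in 4 of these, all higher, against 5.53% of all genes. At an unadjusted p under 0.05, where 3.13% of all genes were higher and 4.04% lower, 1 was higher and 0 lower. That gene was Ier2 (187 and 244 FPKM on average, log2 difference 0.38, SE 0.16, limma adjusted p = 0.693). Junb had 588 and 726 FPKM, and Egr1 had 412, 460 and 567 FPKM with vehicle and 689, 552 and 873 FPKM with atorvastatin (log2 difference 0.54, SE 0.24, limma adjusted p = 0.696). The summed level of the 20 genes was 3839 to 5028 FPKM with vehicle and 4289 to 6030 FPKM with atorvastatin, and the groups overlapped. Within the atorvastatin group it was highest in library 3, where Hspa1a and Hspa1b were highest. Within the vehicle group it was also highest in library 3, where Hspa1a and Hspa1b were lowest. The part of cell isolation in the chaperone values was not tested.

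**Figure D4:**
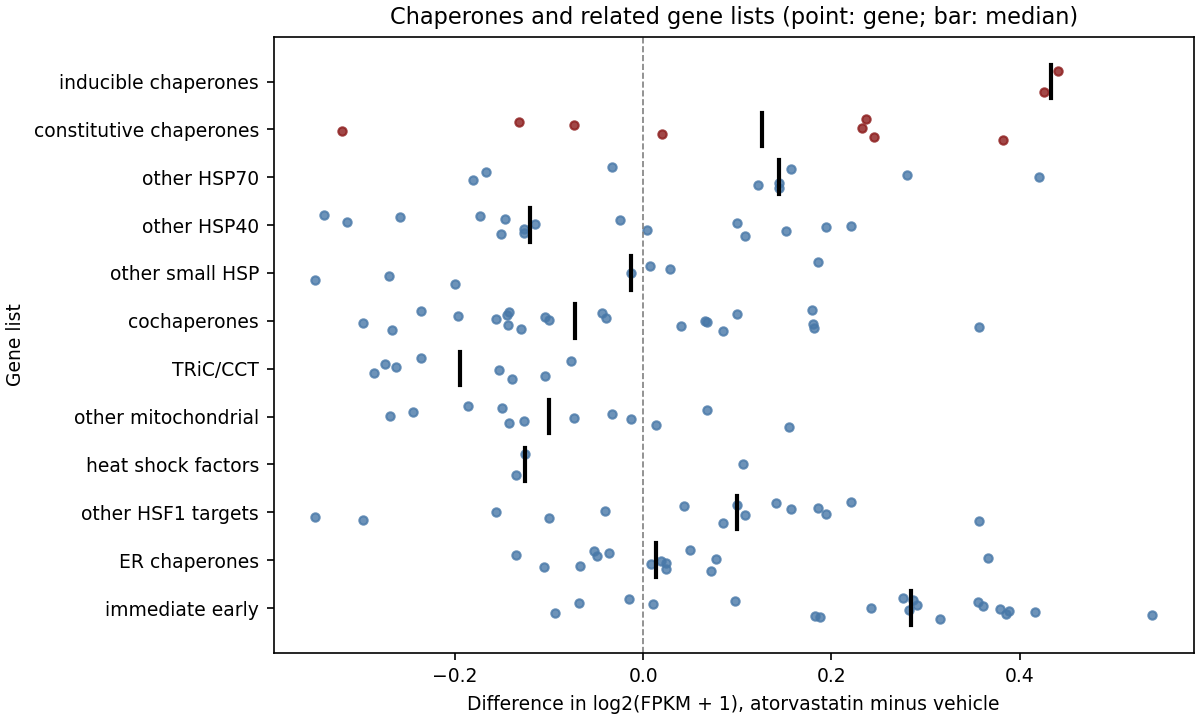
Differences between atorvastatin and vehicle in log2(FPKM + 1) (horizontal axis) for each measured gene (points) of the chaperone groups and the 10 related lists, with the list median as a black bar. The medians run from -0.19 for TRiC to 0.28 for immediate early genes among the related lists, with the inducible pair at 0.43.

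The genes outside these lists whose library profile was most like that of the inducible pair were found by the root-mean-square distance between centred log2(FPKM + 1) values over the 6 libraries. The nearest were Gstm2-ps1 at a distance of 0.035 log2 units, Ppp1r10 and Amotl1 at 0.038, Gm11696 at 0.039 and Fat4 at 0.043. Ppp1r10 had 51.2, 48.1 and 42.2 FPKM with vehicle and 64.6, 56.8 and 73.1 FPKM with atorvastatin. These distances are a description and carry no test.

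Summed markers of some cell types also differed between groups. Summed B cell markers were 310 to 419 FPKM with vehicle and 248 to 263 with atorvastatin, and the sums for T cell (75.6 to 85.7 and 58.8 to 72.7 FPKM), dendritic cell (158 to 214 and 137 to 156 FPKM) and neutrophil markers (25.1 to 32.5 and 18.0 to 24.9 FPKM) were likewise lower without overlap, with 0 of 5 markers higher on average in each of the 4 lists. Sums for plasma cell, macrophage, epithelial, smooth muscle, fibroblast, endothelial and erythroid markers overlapped between groups, although 7 of 7 macrophage markers were higher on average with atorvastatin. Some sums rest mostly on 1 gene. Ccr7 led the dendritic cell sum, at 150, 183 and 129 FPKM with vehicle and 124, 130 and 111 FPKM with atorvastatin. Each of the 5 dendritic cell markers overlapped between groups on its own. Il1r2 led the neutrophil sum, at 16.5, 16.3 and 19.8 FPKM with vehicle and 14.8, 13.7 and 11.9 FPKM with atorvastatin. Of all single genes, 8.85% were lower without overlap. The part of these cell types in the chaperone differences was not tested.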

How the data were processed

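The deposited values are FPKM per gene and library, made by the authors before deposit. FastQC 0.11.2, Bowtie and mm10 are named per the submitters' processing notes, whereas quantifier and strandedness were not given in the sources used here. Groups came from the sample titles. Gene IDs were matched to GENCODE mouse release 21, with the same start and end for 51957 of 55401 IDs and for all 10 members, and 260 IDs had no symbol. Genes that reached 1 FPKM in 3 or more libraries were tested with limma 3.58.1 (R 4.3.3, eBayes with trend) on log2(FPKM + 1), a scale that understates changes of low genes, with Benjamini-Hochberg adjustment over all genes at 0.05. The procedure was run on simulated data with independent noise for each gene and planted changes larger than any difference of the 10 genes. That run does not speak to changes of the size seen here. The members and lists were chosen with earlier results of these data known. Named beside the members were the 2 most abundant genes of each list, list genes at an unadjusted p under 0.05, Hsf1, Hsf2 and the 5 nearest profiles; others were named after their values were seen. Promoters came from RefSeq (GRCm38.p6), which holds windows for 7 of the 10 members. Depth is unknown, so no counting error is given. Alternatives covered pseudocount, filter, scaling, transcript length, variance and weights, single libraries and summed copies.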

Additional observations from a re-analysis of the deposited data

How the results depend on the processing

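None of the 10 chaperones passed a false discovery rate of 0.05 in limma under any of the alternatives run. Their differences kept their direction in 169 of 176 values. Reversed values were the log2 difference of Hspe1 at 0.010 with the length trend removed and 0.083 with array weights, and, when 1 library was left out, Hspe1 (-0.25 to 0.059, positive without vehicle library 3 or atorvastatin library 2), Hspd1 (-0.15 to 0.014, positive without the same libraries) and Hsp90ab1 (-0.032 to 0.087, negative without atorvastatin library 1). Leaving out 1 library gave 0 to 2 genes past the threshold over all genes, and array weights gave 4.

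The number of chaperones higher without overlap was 0 with equal summed FPKM (2.91% of all genes), 3 with equal sums that leave out immunoglobulin, mitochondrial and ribosomal protein genes (8.94%), 3 with the length trend removed (6.95%), and 2 to 7 when 1 library was left out (6.44% to 14.9%). The number lower without overlap was 1 (Hspa8) under that partial scaling (6.67% of all genes) and 0 to 1 when 1 library was left out (12.8% to 17.2%). At an unadjusted p under 0.05 there was 1 (Dnajb1) under the partial scaling, where 7.93% of all genes reached it. With array weights there were 3 (Hspb1, Dnajb1 and Hspa8), where 25.1% of all genes reached it. The weights were 5.39, 0.527 and 0.267 for vehicle libraries 1 to 3. For atorvastatin libraries 1 to 3 they were 1.75, 0.611 and 1.23. The vehicle group thus rested mostly on library 1, where Hspb1 was at its lowest (133 FPKM). The inducible minus constitutive difference was 0.19 to 0.47 when 1 library was left out and 0.34 to 0.36 otherwise. The causes were not tested.

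Without atorvastatin library 1 or 3 the genes at an unadjusted p under 0.05 numbered 535 and 459, and with equal summed FPKM 446, with no filter 1761, with a mean of at least 5 FPKM 563 and with array weights 3413, against 974. Because depth is unknown, no limit of detection can be given.

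With the replicate number as a block, the number of genes past the threshold was 0 and the number at an unadjusted p under 0.05 was 852. The labels do not say whether the numbers pair the libraries, and deviations of same-numbered libraries correlated at -0.11, 0.14 and -0.02 for numbers 1, 2 and 3. The block changed no call of the 10 chaperones. At an unadjusted p under 0.05 it took the TRiC genes from 2 to 0 and the other HSP70 genes from 2 to 1, and the immediate early genes from 1 to 3. Sums with similar pseudogenes and the ratios to single constitutive genes were chosen after the data were seen.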

Other observations

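Genes of the related lists below the filter were not tested. Hsf4, a heat shock factor best known from the lens, was listed at 0.63, 0.61 and 0.60 FPKM with vehicle and at 1.00, 1.04 and 0.92 FPKM with atorvastatin, without overlap. Dnajb14, a J-domain protein of the endoplasmic reticulum membrane, had 1.03, 0.99 and 1.10 FPKM with vehicle and 0.74, 0.77 and 0.76 FPKM with atorvastatin, also without overlap. Hspb9 had 0.52 to 0.68 FPKM with vehicle and 0.58 to 1.83 FPKM with atorvastatin, and Hspb3 was listed at 0 in all libraries. These genes were singled out after their values were seen, and their values lie near the floor. With no filter on low values, 5.01% of 32406 genes were higher and 5.00% lower without overlap.

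Annotated pseudogenes of the mitochondrial chaperones were mostly listed at or near 0. Hspd1-ps3, which shares 1016 of the 2374 stretches of 50 bases in Hspd1, had 10.4, 2.56 and 9.06 FPKM with vehicle and 7.71, 1.87 and 4.59 FPKM with atorvastatin. Its lowest libraries were vehicle 2 and atorvastatin 2, which were also the lowest of their groups for Hspd1. Gm12346, which shares 1664 stretches with Hsp90aa1, had 18.3 to 35.9 FPKM with vehicle and 21.9 to 35.5 FPKM with atorvastatin.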
